A study of Bos taurus with 5 samples.

Results

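The 4 endothelial junction and selectin genes CDH5, PECAM1, SELE and SELP were followed in the wall of bovine ovarian follicles. They were chosen by the RefSeq accession that the array gives to each probe, and each gene had 1 probe. They are 4 of 1364 genes that could be named, 1 probe each, among the 10163 single-spot probes of the array. The arrays compared 3 largest follicles (F1) with 2 second-largest follicles (F2), 1 follicle per array. All follicles were dissected from pregnant Japanese Black cows of an institute herd, and no group received a treatment. Per the study's methods the RNA came from granulosa cells plus theca interna after stroma and theca externa had been removed, whereas the sample labels speak of the whole follicle. The follicles came from 4 cows, 2 of which gave both an F1 and an F2. Which arrays share a cow is not given in the sources used here, so p-values measure the spread between these follicles.

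CDH5 (VE-cadherin) holds endothelial cells together at adherens junctions, and PECAM1 (CD31) is an adhesion molecule of the same cell borders that platelets and leukocytes also carry. Both are widely used to mark endothelial cells. P-selectin (SELP) is stored in endothelial Weibel-Palade bodies and in platelet alpha granules, from which it reaches the cell surface within minutes of stimulation. E-selectin (SELE) is made by endothelial cells after exposure to inflammatory cytokines. Both selectins bind sialylated and fucosylated glycans on leukocytes and let these cells roll on the vessel wall. In the follicle the capillaries lie in the theca, and the granulosa layer has none before ovulation. In RNA of a whole wall, fewer endothelial cells and less RNA per endothelial cell cannot be told apart.

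The probes that stand for the 4 genes are shown because every value below rests on 1 probe per gene. Each is 60 bases long, and the 30 bases at its 3′ end are printed 5′ to 3′ as the scanner files give them. Capitals mark the hexamer AATAAA, the common polyadenylation signal.
CDH5: agctgcttatgctcagttgccgcaggggtt
PECAM1: gggctggttagtttccacacagctgctcca
SELE: tggctctgtaaagtttgatAATAAAcatgt
SELP: ttgatattttgctgAATAAAgtctgtatcc
The hexamer was searched in the printed strand only, and 7.36% of all probes hold it in their last 30 bases. Both selectin probes held it and neither junction probe did. The GC content of the whole probe was 50% for CDH5, 45% for PECAM1 and 35% for SELE and SELP, against a median of 43.3% over all probes. The longest run of bases that any of the 4 shared with another probe of the array was 12 for CDH5, 14 for PECAM1, 13 for SELE and 15 for SELP.

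Signals are given after background subtraction and relative to GAPDH, as a share of the median over the 100 GAPDH spots on the same array. A signal was called well above background where the scanner software flagged it so. Between 5465 and 5855 probes per array carried that flag, the lowest flagged signal lay between 0.0124 and 0.0208 of the GAPDH median, and 30 to 48 probes were saturated. As a check of the labelled tissue, all 8 granulosa genes with a probe (FSHR, CYP19A1, INHA and INHBA among them) and all 7 theca genes were well above background in at least 1 group. Summed over genes, the granulosa signal was 307, 305 and 221 in F1 and 13.3 and 20.4 in F2. The theca signal was 69.5, 105 and 79.2 in F1 and 33.4 and 30.2 in F2. Leaving out probes with a saturated spot took the genes passing limma from 8 to 4 in the granulosa list and from 4 to 3 in the theca list. The sums can thus include saturated spots, whose signals are lower bounds. Most of the theca difference lay in INSL3 (39.2, 78.2 and 44.7 in F1 and 5.495 and 3.67 in F2), while STAR of the same list read higher in both F2 (16.1 and 9.91) than in F1 (5.56, 3.14 and 5.33) and did not pass limma (adjusted p = 0.0593). The part of these levels in the values below was not tested.

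SELP was higher in F2 and was the 1 member called, of the 2 (SELP and PECAM1) that could be tested. With follicles given in the order of their replicate numbers here and below, the F1 read 0.0395, 0.0838 and 0.0434 and the F2 read 0.636 and 0.864. All 5 arrays flagged it as well above background. Both F2 stood far above every F1, and the lower F2 was 7.59 times the highest F1. Within a group the highest signal was 2.12 times the lowest in F1 and 1.36 times in F2. The mean was 0.0556 ± 0.0246 (SD, n = 3) in F1 and 0.75 ± 0.161 (SD, n = 2) in F2. On the log2 scale the difference F1 minus F2 was -3.82 ± 0.41 (SE), which is 14.2-fold higher in F2 with a 95% interval of 7.14 to 28.1 (limma, adjusted p = 0.00329). Of all 5528 probes tested, 11.5% were called, 6.39% as higher in F1 and 5.08% as higher in F2. The groups did not overlap in 49.2% of them, and in 15.7% both F2 lay above every F1. An exact permutation test of 3 against 2 follicles, two-sided, gave 0.1, the smallest p it can give. By its difference toward F2, SELP ranked 14 of the 4861 probes that all 5 arrays flagged, and 5 of the 735 of these with a gene symbol. Over all 5528 tested probes, which include probes flagged in F2 only, it ranked 95.

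SELP is also a gene that the study picked on these arrays, so its direction here is no independent evidence. The study also measured SELP by QPCR in these follicles and in a further F2 that was not on an array. It reported significantly more SELP mRNA in F2 than in F1. The call on these arrays rested on both F2. Without F2 replicate 1 the difference was -4.04 (limma, adjusted p = 0.0888), and without F2 replicate 2 it was -3.60 (limma, adjusted p = 0.0636). With normexp background correction the fold was 5.19 in place of 14.2 and the call stayed.

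**Figure D1:**
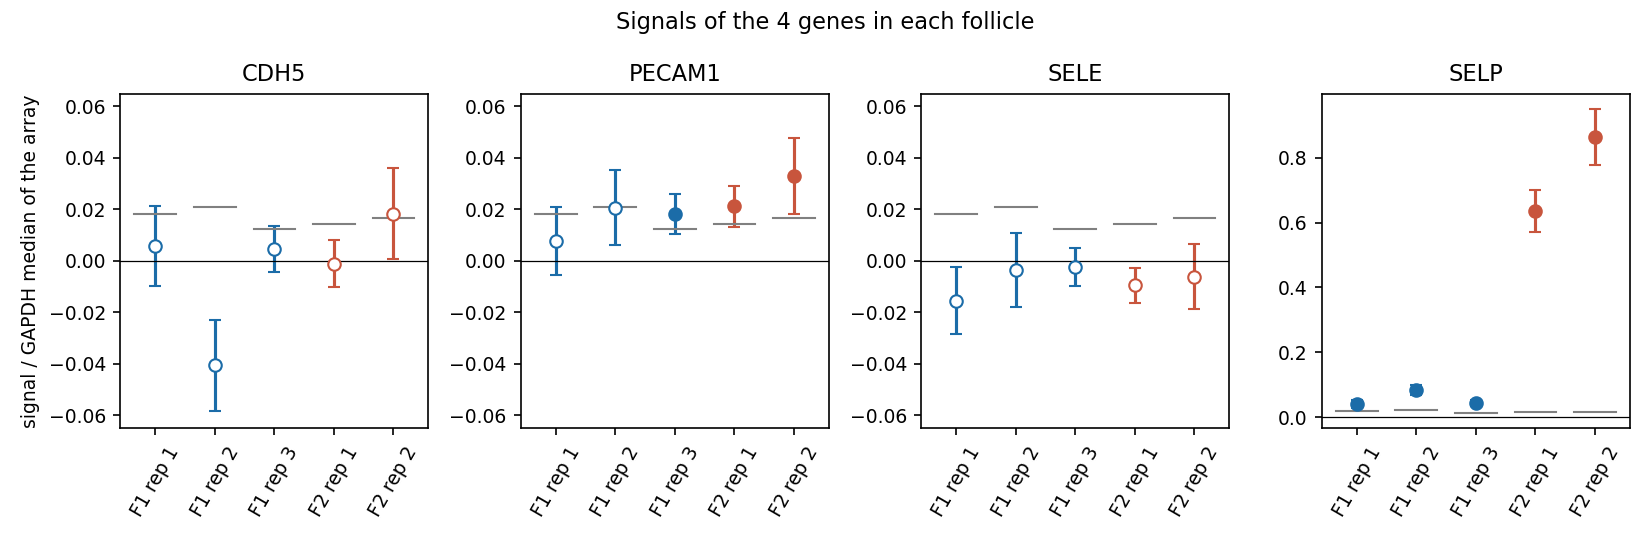
Signal of CDH5, PECAM1, SELE and SELP in each follicle, as a share of the GAPDH median of the array on a linear axis (SELP has its own axis range). Blue circles are F1 and red circles F2, filled where the array flagged the probe as well above background, with bars of 1 software error per spot and grey lines at the lowest flagged signal of the array; the SELP signals of F2 (0.636 and 0.864) stand above all others, CDH5 and SELE are open in all 5 follicles, and PECAM1 lies near the grey lines.

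E-selectin, the other selectin of endothelial cells, gave no signal above background in any follicle. Its values were -0.0155, -0.00343 and -0.00222 in F1 and -0.00941 and -0.00613 in F2, all at or below 0 after background subtraction. None of the 5 arrays flagged it, so it was not tested between groups, and no fold can be given. The plot of signals by follicle shows it at the level of the blank. This bounds the signal of 1 probe and does not show that the transcript was absent.

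CDH5 was not well above background in any follicle either. It read 0.00589, -0.0405 and 0.00463 in F1 and -0.00103 and 0.0183 in F2. The software error of these spots ran from 0.00887 to 0.0176, and the highest reading was 1.04 times its own error. F1 and F2 overlapped, and CDH5 was not tested. CDH5 thus had no measured level in F1 or F2, and a difference between them was not detectable at this sensitivity.

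PECAM1 was the only junction member with a measured level, and it was weak. Its signal was 0.00771, 0.0207 and 0.0182 in F1 and 0.0211 and 0.0330 in F2. It was well above background in F1 replicate 3 and in both F2, but not in F1 replicates 1 and 2. Both F2 lay above every F1, though the lower F2 was only 1.02 times the highest F1, a gap smaller than the software error of either spot (0.0146 and 0.00781). The mean was 0.0155 ± 0.00689 (SD, n = 3) in F1 and 0.0271 ± 0.00835 (SD, n = 2) in F2. The log2 difference was -0.89 ± 0.50 (SE), a fold of 1.85 over F1 with a 95% interval of 0.806 to 4.25 (limma, adjusted p = 0.282). The exact permutation test, two-sided, gave 0.2. The interval holds no change as well as a 4.25-fold higher level in F2, so PECAM1 was not shown to differ and was not shown to be equal.

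To set the selectin against the junction genes inside each follicle, the log2 signal of the reference gene was subtracted from that of SELP on the same array, in which GAPDH cancels. Relative to PECAM1, the log2 difference was 2.36, 2.02 and 1.26 in F1 and 4.91 and 4.71 in F2. Both F2 lay above every F1 (exact permutation test, two-sided, p = 0.1, the smallest possible). PECAM1 varied less over the follicles than the gap between the SELP signals of F1 and F2. This order therefore restates that gap and is no added evidence. PECAM1 was not well above background in 2 of the 3 F1, so the size of the gain is not fixed by these readings. It was 7.65-fold as read and 10.2-fold with each dim PECAM1 signal raised to the lowest flagged signal of its array, an alternative added after seeing the data. With the mean of CDH5 and PECAM1 as reference the log2 difference F1 minus F2 was -3.13, and with CDH5 alone it was -3.32 and the groups overlapped (exact permutation p = 0.3). CDH5 was unmeasured in all 5 follicles and was set to the floor in 2, so both values depend on that floor and neither is read further. Neither junction gene was well above background on all 5 arrays, so no limma test of the relative level was made.

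The same was done with the other endothelial genes well above background on all 5 arrays, for which the level is firmer. These were TIE1 and TEK, the tyrosine kinases of the angiopoietin system, CD34, a sialomucin of small vessels and stromal progenitors, NOS3, the endothelial nitric oxide synthase, PROCR, the protein C receptor, CAV1, the main protein of caveolae, and LYVE1, the hyaluronan receptor of lymphatic vessels. Relative to each of these 7 genes, the SELP value of both F2 exceeded that of all 3 F1. The gain ran from 5.06-fold over CD34 to 23.3-fold over CAV1. Given as values with no further test, these 7 comparisons share the same SELP signals. The lower F2 of SELP was itself 7.59 times the highest F1, and each reference gene varied less than this over the follicles. The shared order was thus set by SELP alone and is no added evidence.

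**Figure D2:**
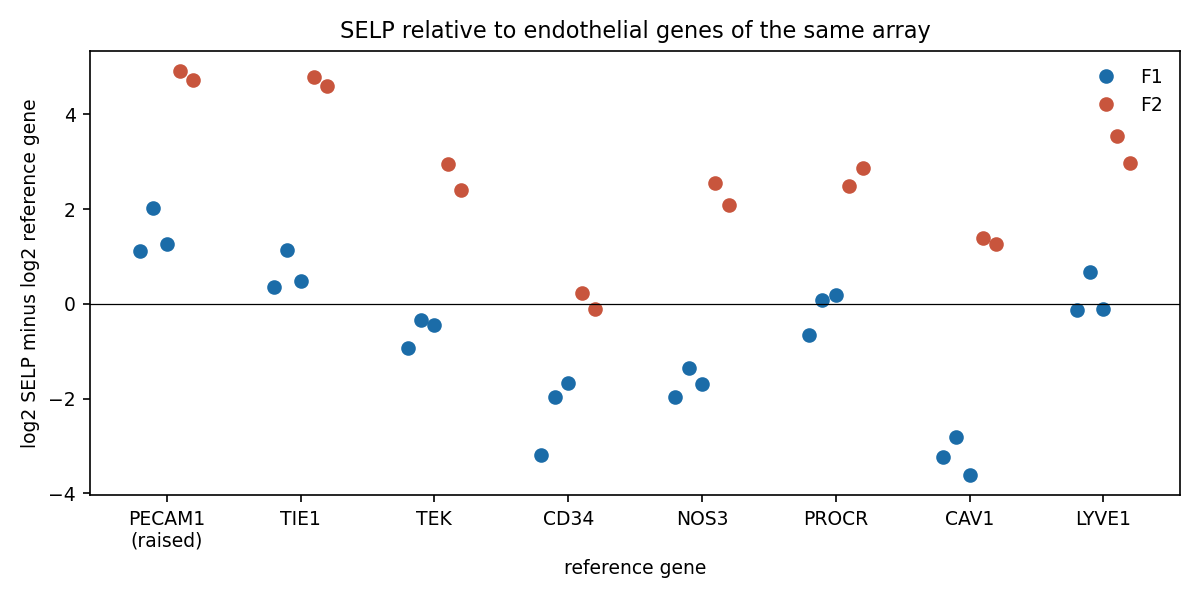
Log2 signal of SELP minus log2 signal of a reference gene on the same array (y axis, log2 units), for PECAM1 with dim signals raised to the lowest flagged signal of the array and for 7 endothelial genes. Each point is 1 follicle, blue for F1 and red for F2. In each column both F2 points lie above all F1 points, an order that the SELP gap alone sets. Heights compare between follicles and not between genes.

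The wider endothelial identity list held 35 genes, of which 11 had a probe with a symbol and 9 could be tested. Of these 9 genes, 0 passed limma in either direction, 2 had an unadjusted p under 0.05 and the median log2 difference was -0.71, against 0.27 over all tested probes. In 5 of the 9 both F2 lay above every F1, in 1 every F1 lay above both F2 and in 3 the groups overlapped. Over all tested probes 11.5% were called, 1616 of 5528 had an unadjusted p under 0.05 and 15.7% had both F2 above every F1. CD34 read 0.359, 0.328 and 0.138 in F1 and 0.542 and 0.927 in F2. Its fold of 2.80 over F1 did not pass (limma, adjusted p = 0.112). PROCR read 0.0625, 0.0793 and 0.0379 in F1 and 0.114 and 0.119 in F2, a fold of 2.03 (limma, adjusted p = 0.136). These 2 genes are those that other scalings called: with the 75th percentile of the array in place of GAPDH, CD34 (adjusted p = 0.0362) and PROCR (adjusted p = 0.0371) both passed limma as higher in F2.

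The angiopoietin receptors and the other genes of the list did not pass under GAPDH or 75th percentile scaling. TIE1 read 0.0310, 0.0382 and 0.0313 in F1 and 0.0230 and 0.0357 in F2, a log2 difference of 0.22 (limma, adjusted p = 0.677). NOS3 differed by 0.16 on the log2 scale (limma, adjusted p = 0.804), a sign that turned with the 75th percentile (-0.05). TEK read 0.0749, 0.107 and 0.0591 in F1 and 0.0825 and 0.162 in F2 (limma, adjusted p = 0.398). In all 3 genes the F1 and F2 ranges overlapped. CAV1 had a log2 difference of 0.72 (limma, adjusted p = 0.220) and LYVE1 of -0.71 (limma, adjusted p = 0.253). AQP1 had the largest difference of the tested list genes, a fold of 5.07 toward F2 (limma, adjusted p = 0.282). It read 0.0242, -0.0210 and 0.0158 in F1 and 0.0293 and 0.0462 in F2. Of these, F1 replicate 1 and both F2 were well above background. The F1 reading below 0 was raised to the floor, so the AQP1 fold depends on that floor. The summed signal of the 9 genes was 1.13, 1.42 and 1.02 in F1 and 1.22 and 1.998 in F2, with F2 replicate 1 inside the F1 range. EDNRB, the endothelin B receptor, was like CDH5 not well above background on any array.

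The junction partner list of 23 genes holds epithelial and tight junction genes besides partners of CDH5 and PECAM1. Of these, 5 were tested and 0 of 5 passed limma (2 at an unadjusted p under 0.05). Over all 5528 tested probes 11.5% were called and 1616 had an unadjusted p under 0.05. The groups did not overlap in 49.2% of all tested probes, and in 15.7% both F2 lay above every F1. The list median log2 difference, that of CDH1, was 0.66, against 0.27 over all tested probes. JUP (plakoglobin), which links cadherins to the cytoskeleton, read 1.39, 1.31 and 1.23 in F1 and 0.527 and 0.758 in F2. Each F1 lay above both F2, a fold of 2.07 toward F1 (limma, adjusted p = 0.0677). With the 75th percentile as the scaling JUP was called. F11R (JAM-A), a tight junction protein, had a fold of 1.87 toward F1 (limma, adjusted p = 0.167), and its signals did not overlap. CDH1 (E-cadherin), the epithelial counterpart of CDH5, read 4.95, 1.62 and 1.94 in F1 and 0.857 and 2.89 in F2, so the groups overlapped. RAP1A and RAP1B, small GTPases that strengthen endothelial junctions, had log2 differences near 0 (0.001 and 0.02).

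Both selectins belong to the genes of endothelial activation, most of which respond to inflammatory cytokines. Of 30 listed genes, 19 had a probe with a symbol and 11 were tested. SELP, PLAUR, PLAU and CCL2 were called higher in F2 and TNFAIP6 higher in F1, 5 of 11 against 11.5% of all tested probes. The median log2 difference was -1.14. The study picked SELP, PLAUR, CCL2 and TNFAIP6 on these arrays, so the count is not independent evidence of a direction. PLAUR entered the test only through its F2 flags and TNFAIP6 only through its F1 flags, the groups where they are high. Several of these genes are made by other cells of the wall as well. Without F2 replicate 1 the count was 1 (PLAUR), and without F2 replicate 2 it was 2 (PLAUR and PLAU).

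PLAU, the urokinase activator, read 0.144, 0.154 and 0.141 in F1 and 0.845 and 0.470 in F2, a fold of 4.31 (limma, adjusted p = 0.0130). CCL2, a chemokine that draws monocytes, read 0.0444, 0.0928 and 0.0264 in F1 and 0.592 and 0.488 in F2, a fold of 11.3 (limma, adjusted p = 0.0115). In both genes, as in SELP, both F2 lay well above every F1. PLAUR, the urokinase receptor, read 3.38 and 1.18 in F2 and was well above background in 2 of 3 F1 (limma, adjusted p = 0.00112). TNFAIP6, a hyaluronan-binding protein of the expanding cumulus and of inflamed tissue, went the other way, at 1.04, 0.151 and 1.14 in F1 (limma, adjusted p = 0.0435), and was well above background in 1 of 2 F2. Its adjusted p was the highest of the 5, and the call was lost with the 75th percentile as the scaling and without F1 replicate 1 (adjusted p = 0.117).

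The other adhesion molecules of activated endothelium were not called. VCAM1, the ligand of the integrin VLA-4, read 0.654, 0.381 and 0.321 in F1 and 0.515 and 1.28 in F2 (log2 difference -0.91; limma, adjusted p = 0.274). ICAM1, the ligand of the beta 2 integrins, read 0.0484, 0.0758 and 0.0623 in F1 and 0.0694 and 0.0824 in F2 (log2 difference -0.31; limma, adjusted p = 0.541). Both overlapped between groups. TNFRSF1A, a receptor of TNF, lay higher in both F2 than in all F1, by 2.21-fold, and just missed the threshold (limma, adjusted p = 0.05001). It was called with the 75th percentile (adjusted p = 0.0122), quantile normalization and normexp. IL6 was well above background in both F2 (0.0361 and 0.0679) and in 0 of 3 F1, and missed the threshold (limma, adjusted p = 0.137). F3 leaned the other way, at 0.989, 0.171 and 0.303 in F1 and 0.0802 and 0.156 in F2. Its fold of 3.32 toward F1 did not pass (limma, adjusted p = 0.185), but it was called with normexp (limma, adjusted p = 0.00262). SOD2 had a fold of 1.06 toward F2 (limma, adjusted p = 0.915). SELE, CXCL8, CXCL2, CXCL5, TNF, IL1B and IL1A of this list were not well above background on any of the 5 arrays. TNF, IL1A, IL1B and SELE were thus all unmeasured. Whether such cytokines had a part in the SELP signal was not tested.

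**Figure D3:**
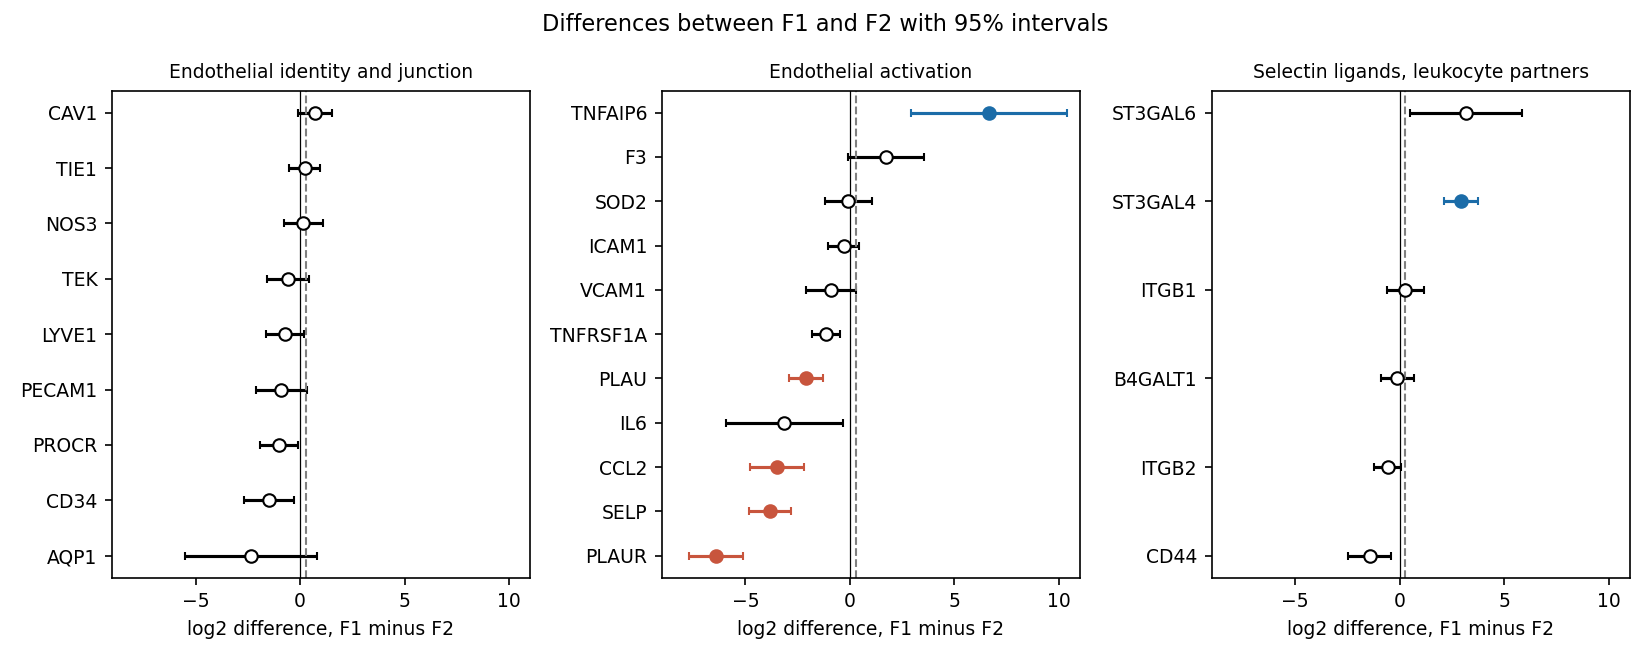
Log2 difference F1 minus F2 with its 95% limma interval (x axis, log2 units) for the tested genes of the endothelial identity, endothelial activation and selectin ligand lists. Filled circles passed limma (blue higher in F1, red higher in F2), open circles did not, and the dashed line is the median over all tested probes (0.27); 0 of 9 identity genes, 5 of 11 activation genes and 1 of 6 ligand genes are filled.

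Of 21 listed genes for selectin ligands and their leukocyte partners, 11 had a probe with a symbol and 6 were tested. ST3GAL4 was the 1 gene of 6 called, where 11.5% of all tested probes were. ST3GAL4, a sialyltransferase that takes part in making selectin ligands, read 60.1, 66.7 and 41.6 in F1 and 6.19 and 8.64 in F2. All 3 F1 spots were saturated, which makes its fold toward F1 at least 7.53 (limma, adjusted p = 0.00414). Without F2 replicate 1 it was not called (limma, adjusted p = 0.0940). CD44, a hyaluronan receptor that can carry selectin ligands, read 0.0718, 0.140 and 0.0798 in F1 and 0.342 and 0.186 in F2, a fold of 2.72 (limma, adjusted p = 0.0824). ITGB2, the shared chain of the leukocyte beta 2 integrins, had a fold of 1.49 (limma, adjusted p = 0.218). In both CD44 and ITGB2 the F2 signals lay above all F1 signals without passing the test. ST3GAL6, another sialyltransferase, went the other way without passing: it was well above background in all 3 F1 (0.0348, 0.0491 and 0.0337) and in 0 of 2 F2 (limma, adjusted p = 0.123).

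Markers of other cells that could bring SELP or PECAM1 RNA were read beside these values. Of 31 leukocyte genes, 14 had a probe with a symbol and 10 were tested. TYROBP, CD3E, S100A12 and CD14 were called higher in F2 and CYBB, a subunit of the phagocyte oxidase, higher in F1, against 5.08% and 6.39% of all tested probes called in these directions. The median log2 difference was -1.06, and the summed signal of the 10 genes was 2.90, 1.94 and 1.56 in F1 and 3.099 and 2.76 in F2, so F2 replicate 2 lay below F1 replicate 1. No leukocyte call held when either F2 was left out (0 in both cases). CD3E, the T cell receptor chain, was well above background in both F2 (0.0337 and 0.0242) and in no F1. Its F1 readings were -0.0254, -0.0268 and 0.00292, and those below 0 were raised to the floor. The size of its difference therefore depends on that floor. CD3E entered the test only through its F2 flags, so its place among the calls toward F2 is no evidence of a direction. With normexp the CD3E fold was 1.16 and the call was lost (limma, adjusted p = 0.746). TYROBP (limma, adjusted p = 0.0616) and CD14 (adjusted p = 0.188) also lost their calls with normexp. S100A12 and CYBB kept theirs, and CYBA was called higher in F2 (limma, adjusted p = 0.0278). Of 18 platelet and erythrocyte genes only 2 had a probe with a symbol. HBB, the beta globin of red cells, was at or below 0 in all 5 follicles. GYPC, a glycophorin of red cells and other tissues, had a fold of 2.16 toward F2 (limma, adjusted p = 0.0674). GYPC was called higher in F2 with the 75th percentile (limma, adjusted p = 0.0273), quantile normalization (adjusted p = 0.0223) and normexp (adjusted p = 0.0199). CALD1 (caldesmon), the 1 tested gene of the pericyte and smooth muscle list, was 3.80-fold higher in F2 (limma, adjusted p = 0.0116), a call lost without F2 replicate 1 (adjusted p = 0.133) or 2 (adjusted p = 0.0926). The study also listed a further caldesmon probe, not named here, as higher in F2 on these arrays. The CALD1 direction is thus no independent evidence. The part of leukocytes, platelets or pericytes in the SELP signal was not tested.

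Among the named genes well above background on all 5 arrays, those whose centred log2 pattern over the 5 follicles lay nearest to SELP were SERPING1, PTGES, CCL2, ITGAV and FABP5, at root mean square distances of 0.39 to 0.48 log2 units over 734 genes compared. SERPING1, the inhibitor of complement C1, read 0.299, 0.676 and 0.294 in F1 and 3.16 and 3.43 in F2. PTGES, the inducible prostaglandin E synthase, read 0.0695, 0.121 and 0.0768 in F1 and 0.913 and 0.701 in F2. As with SELP, F1 replicate 2 was the highest F1 in both. ITGAV, the integrin alpha V chain, read 1.43, 1.85 and 0.979 in F1 and 11.01 and 12.3 in F2. These genes were chosen for their likeness, so their folds are a description with no test.

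**Figure D4:**
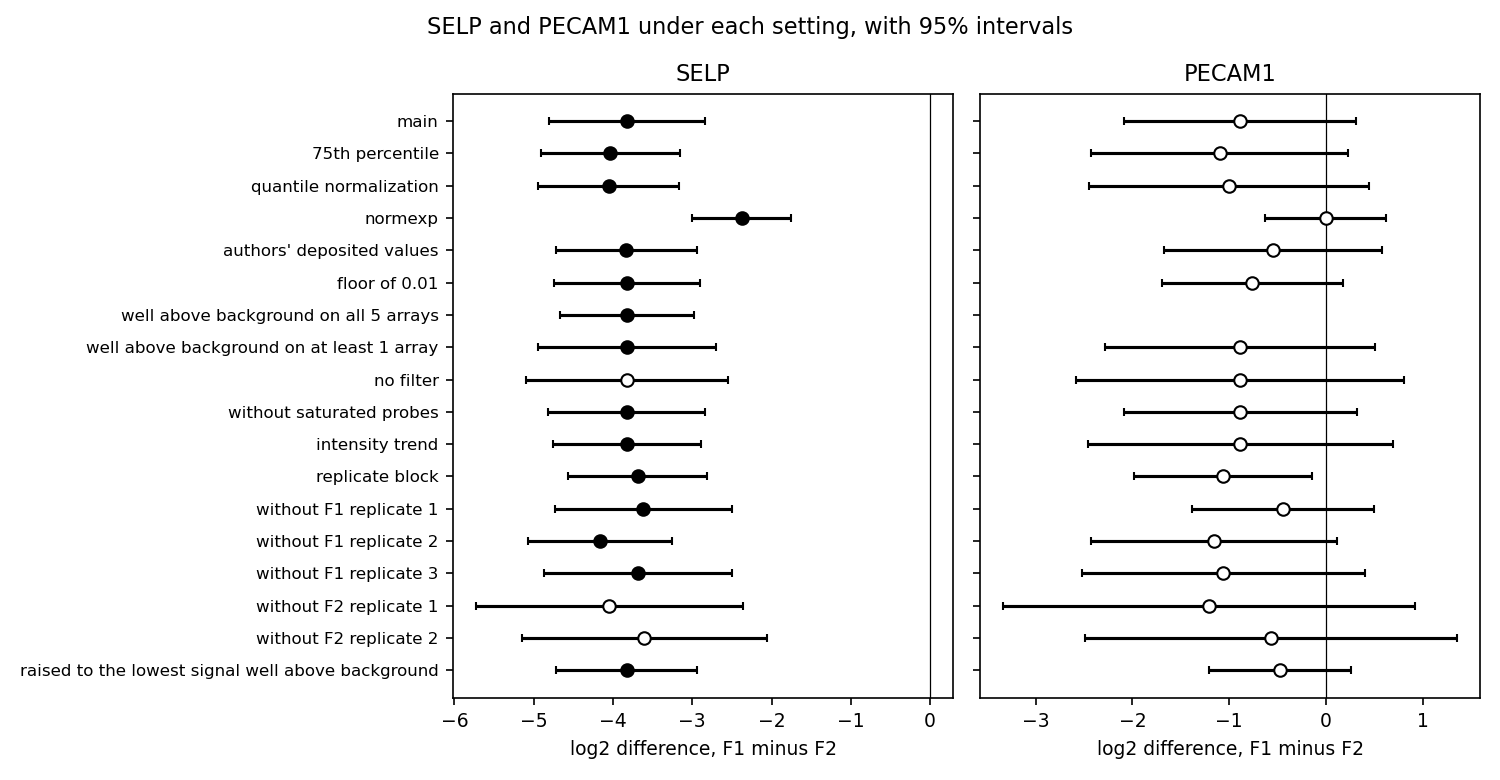
Log2 difference F1 minus F2 with its 95% interval (x axis, log2 units) for SELP and PECAM1 under each processing setting (y axis). Filled circles had a limma adjusted p under 0.05; SELP stayed between -4.16 and -2.38 and lost the call with no filter and without either F2, whereas PECAM1 was open in every setting in which it could be tested.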

How the data were processed

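Cy3-labelled RNA of 3 F1 and 2 F2 had been hybridized to 5 one-color Agilent arrays of 60-base probes. The authors extracted spot intensity, and the deposited scanner files hold a background-subtracted processed signal intensity with flags and a software error. Their deposited p-value that a spot equals its background was read for the members and used in no call. The authors' table of normalized values, the ratio of that signal to the GAPDH median of the array, equalled the ratios computed here within 0.0006 in 100% of 28661 values.

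Each processed signal was taken relative to the GAPDH median, raised to at least 0.001 of it (12494 of 50815 values were at or below 0) and log2 transformed. Controls, GAPDH spots and 1 outlier probe were left out. A probe was tested if all F1 arrays or all F2 arrays flagged it as well above background (5528 probes). The test was limma 3.58.1 (lmFit, eBayes; R 4.3.3), adjusted by Benjamini-Hochberg over all of them, with a threshold of 0.05. Single values were tested by exact permutation over follicles in Python 3.11.15. The limma script was tested on simulated data.

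Probes were named through RefSeq accessions (1364 of 1415 matched; assembly ARS-UCD2.0, names only), and no genome position is given. Each listed gene that could be named had 1 probe with a RefSeq accession. Probes with other accessions were not named, so a listed gene may have more probes. Some genes of these lists are not reported here, and list counts leave them out. The members and gene lists were chosen with earlier results of these data known. The text names the members, tested genes of the lists and, for each tested member, the 5 named genes nearest in pattern; undetected genes named, and the list genes given in full, were chosen after their values were seen.

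Alternatives were 75th percentile or quantile normalization, normexp (offset 50), the authors' values, a floor of 0.01, other filters, no saturated probes, an intensity trend, a replicate block and leaving out each follicle. Raising dim signals to the lowest flagged signal was added after seeing the data. Precision is limited by the number of arrays.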

Additional observations from a re-analysis of the deposited data

How the results depend on the processing

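The SELP difference was negative in all 17 alternatives, from -4.16 to -2.38, and kept its call in 14. It missed with no filter on dim probes (-3.82, limma adjusted p = 0.0586), which tests more probes, and its range over left-out follicles was -4.16 to -3.60, with the call lost without either F2. PECAM1 was called in 0 of 16 alternatives (-1.21 to -0.01, limma adjusted p from 0.12 to 0.994) and could not be tested under the filter for all 5 arrays. CDH5 and SELE could be tested only with no filter (-0.51 and 0, limma adjusted p = 0.997 and 1). The within-array difference of SELP from CDH5 and PECAM1 ran from -4.11 to -2.14 over 10 alternatives (exact permutation p from 0.1 to 0.333). Its reference includes CDH5, unmeasured on all 5 arrays, and the small designs cannot reach the threshold, so this range shows no stability. The filter, saturation, trend and block settings do not apply to that value, and quantile, normexp and the authors' values were not run for it.

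With F1 and F2 of the same number as a replicate block, SELP differed by -3.69 (limma adjusted p = 0.00839) and PECAM1 by -1.06 (limma adjusted p = 0.12). The numbers are not known to pair follicles. Deviations of same-numbered follicles from their group mean correlated at 0.039 (replicate 1) and 0.13 (replicate 2). With 2 F2 their deviations mirror each other, so these correlations cannot show whether the follicles share a cow.

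Calls over all probes numbered 634, and 344 with a probe kept if flagged on at least 1 array, 214 with no filter and 160 to 550 over left-out follicles (344 without F1 replicate 1, 160 without F2 replicate 1, 200 without F2 replicate 2). The median log2 difference of all tested probes was 0.27 with GAPDH and 0.06 with the 75th percentile. The endothelial identity list went from 0 calls to 2 with the 75th percentile or quantile normalization and 1 with normexp. The junction partner list went from 0 to 1 with either of these scalings, normexp, the filter for all 5 arrays or an intensity trend. The activation list went from 5 to 1 with no filter and to between 1 and 5 over left-out follicles. The selectin ligand list went from 1 to 2 with quantile normalization, a floor of 0.01 or the filter for all 5 arrays, to 3 with raised signals, to 0 with the authors' values, with no filter or without saturated probes, and to between 0 and 2 over left-out follicles. The leukocyte list went from 5 to 3 with normexp or the filter for at least 1 array, to 0 with no filter and to between 0 and 5 over left-out follicles. The platelet and erythrocyte list went from 0 to 1 with the 75th percentile, quantile normalization or normexp. It did so too with a floor of 0.01, the filter for all 5 arrays, an intensity trend or raised signals. Except where stated, the cause was not tested. Signal over background limits CDH5, SELE and PECAM1, whose readings lie near the software error.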

Other observations

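The named genes nearest in pattern to PECAM1 over the 5 follicles, among 735 compared, were PIK3CA, NR2F2, NMT2, CCN2 and CRYBA4, at root mean square distances of 0.22 to 0.28 log2 units. NR2F2 (COUP-TFII), a nuclear receptor known from venous endothelium and from theca and stromal cells, read 0.155, 0.312 and 0.222 in F1 and 0.326 and 0.634 in F2. CCN2, a matrix-associated growth factor also called CTGF, read 1.05, 2.75 and 1.75 in F1 and 2.82 and 5.83 in F2. In each the lower F2 exceeded the highest F1 by little, as in PECAM1, and neither passed limma (adjusted p = 0.174 and 0.169). PECAM1 was itself not well above background in F1 replicates 1 and 2, so the likeness rests partly on dim readings.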
